A study of Homo sapiens with 4 samples.

Results

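The genes described here encode the initiation and elongation factors of cytoplasmic translation, with the enzymes that act on them. A gene was taken as a member where its name in the deposited table was EIF followed by a digit, or EEF followed by 1 or 2, with further capitals or digits only, and where its description did not contain the word pseudogene. This gave 70 genes of the 60671 in the table, another 137 matching names being annotated pseudogenes. Poly(A) RNA was sequenced from H9, a long-established line of human embryonic stem cells, grown without treatment in mTeSR medium. There were 2 control H9 libraries and 2 libraries labelled CFIm25 KO + 3Flag-CFIm25 overexpression (KO+OE), in which the gene for CFIm25 (NUDT21), a factor of mRNA 3′ end processing, had been edited and a 3Flag-tagged copy was then expressed. Per the study's methods edited cells were selected on puromycin and grown up as single-cell clones, and the tagged cDNA came from a lentiviral vector with an EF1 promoter, so KO+OE stands for an edited and re-expressing line and not for loss of CFIm25. The study describes re-expression in 1 edited clone, CFIm25-m3, while the labels name no clone. The title of the series writes KD where the sample labels write KO. By the study's own account the edited clones are knockdowns rather than full knockouts. They keep a faint CFIm25 band and make CFIm25 proteins shortened at the N-terminus. The labels do not say that the 2 libraries of a group came from separate cultures, so the p-values measure the spread between these libraries, which may be technical.

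Translation of a cytoplasmic mRNA starts when eIF2 brings the initiator tRNA to the small ribosomal subunit, on which eIF1, eIF1A, eIF3 and eIF5 also sit. The eIF4 factors bind the cap, unwind the leader and recruit that complex, and eIF5B joins the large subunit. eEF1A then delivers each aminoacyl-tRNA, the eEF1B subunits recharge eEF1A with GTP, and eEF2 moves the ribosome along. Phosphorylation of the eIF2 alpha subunit by stress kinases and sequestration of eIF4E by its binding proteins are the main brakes on initiation. Many vertebrate mRNAs of the translation machinery begin with a C followed by a run of pyrimidines (a 5′ terminal oligopyrimidine tract), through which mTOR and LARP1 control their translation.

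Such runs were looked for at the annotated starts of the members, because they are a sequence property the choice of genes did not use. The first transcribed bases came from RefSeq promoter stretches of GRCh38.p14, the same human build (hg38) that the submitters' processing notes name, and 55 of the 70 members had a stretch. A run was counted where the first transcribed base was C and at least 5 bases in a row, that C included, were C or T on the transcribed strand, in any annotated start of the gene. Of the 51 members with a stretch and a mean over the libraries of 1 TPM or more (transcripts counted per length, scaled to a fixed total), 12 had such a run (23.53%), against 8.01% of the 8850 genes at that level with a stretch. Counted singly and not by gene, 4.07% of all 35116 stretches had one, which is an unlike measure. The 12 members were 3 of 5 elongation factor genes (EEF1A1, EEF1B2 and EEF2), 3 of 4 genes of the eIF2 group (EIF2A, EIF2D and EIF2S3), 4 of 8 eIF3 genes (EIF3D, EIF3F, EIF3K and EIF3M) and 2 of 12 eIF4 genes (EIF4A2 and EIF4B). The other groups had 0. The 12 genes had a median level of 227 TPM (range 4.11 to 9713) and the 39 without a run one of 21.4 TPM (range 1.08 to 3546); over all genes the same medians were 17.4 and 9.05 TPM. These are descriptions of annotated starts, with no test, and the starts used in H9 cells were not measured. Below are 30 bases around the start of 4 of the most abundant genes with a run and of EIF4A3, which had none and had the lowest p of all members in the comparison of the groups; the run is in capitals and begins at the 16th base, the first transcribed one.
EEF1A1: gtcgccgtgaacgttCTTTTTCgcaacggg
EEF2: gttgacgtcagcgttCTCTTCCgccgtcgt
EIF3F: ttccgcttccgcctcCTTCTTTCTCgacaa
EIF3K: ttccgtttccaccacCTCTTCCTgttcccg
EIF4A3: gttctcggcagcggcacagcgaggtcggca
The windows lie at chr6:73521018-73521047 (minus strand) for EEF1A1, chr19:3985449-3985478 (minus) for EEF2, chr11:7987322-7987351 (plus) for EIF3F, chr19:38619173-38619202 (plus) for EIF3K and chr17:80147114-80147143 (minus) for EIF4A3, each spanning the upstream flank and the first bases of the 5′ untranslated region.

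The 4 columns summed to 986853 to 987078 TPM. They hold no read counts, so depth is unknown and no counting interval can be given. NUDT21 itself was at 161 and 152 TPM in the controls and at 162 and 157 TPM in KO+OE, with a log2 fold change of 0.03 (95% confidence interval -0.09 to 0.14); the groups overlapped, and transcripts of the edited gene and of the tagged copy cannot be told apart in this row. All 6 pluripotency markers were present, from 18.7 TPM for SOX2 to 2189 TPM for POU5F1. The germ layer markers were at a sum of 0.54 to 1.23 TPM, with 0 of 6 reaching a mean of 1 TPM. Of 4 fibroblast markers, LUM was at 0 in every library and DCN at 0.08 TPM or less, while COL1A1 was at 53.9 to 55.6 TPM and COL1A2 at 12.99 to 14.5 TPM in both groups.

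Translation factor transcripts made up 2.90% to 2.93% of all TPM in the 4 libraries, with sums of 28628 and 28829 TPM in the controls and 28951 and 28720 TPM in KO+OE. A few genes carried most of it. EEF1A1, EEF2 and EEF1G together gave 61.1% to 61.9% of the sum and ranked 9, 36 and 51 among all genes by mean level. At the other end, 19 members lay between 1 and 10 TPM, 23 between 10 and 100 TPM, 19 between 100 and 1000 TPM and 5 above 1000 TPM. The fold between the highest member, EEF1A1, and the lowest tested, EEF1AKMT2, was 8970. TPM is scaled by transcript length, but that alone does not make levels comparable between genes. As given further on, the levels still moved with GC content and length, so comparisons between genes are of TPM only. In bulk RNA, fewer cells of a type and less RNA per cell cannot be told apart.

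**Figure D1:**
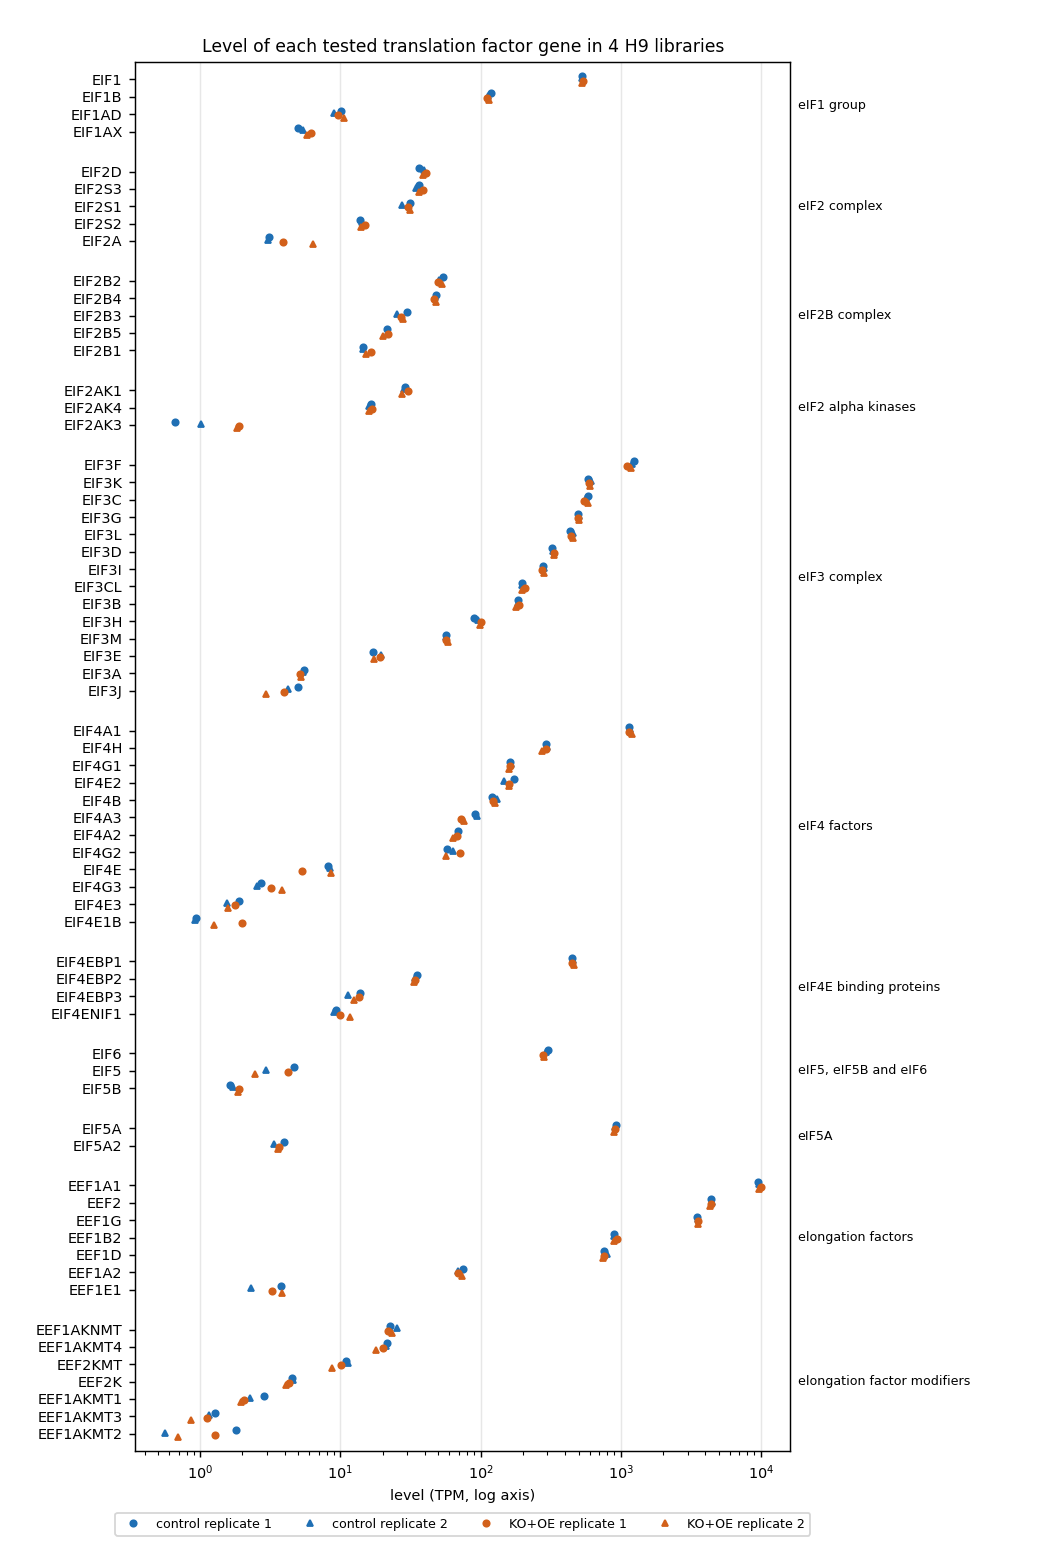
Level of each of the 66 tested genes (rows, grouped by role) in TPM on a log axis; circles and triangles are replicates 1 and 2, blue control and orange KO+OE. The 4 points of most genes lie on top of one another, while genes of one complex, such as eIF3, spread from 4.03 to 1183 TPM.

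Of the 70 members, 66 averaged 1 TPM or more over the libraries and entered the test. EIF2AK2 (PKR, the kinase activated by double-stranded RNA) fell short with 1.12 and 1.05 TPM in the controls and 0.93 and 0.72 TPM in KO+OE. EIF5AL1 was at 0.23 to 0.39 TPM, EIF2S3B was listed at 0 in every library, and EIF1AY, the Y-linked copy of EIF1AX, was also under the filter. The question for the other 66 was whether any differed between the edited and re-expressing line and the control libraries. The labels call these only control H9, while the study's mock controls were clones given an empty CRISPR/Cas9 vector. For the RNA-seq of its re-expressing cells the study names mock control cells as the other arm. A legend of the study writes that arm as mock (m+OE). Whether the controls shared the cloning, the puromycin or a lentiviral vector is not in the labels. Any such steps that differ between the groups cannot be told apart from the editing and re-expression. Differences are log2 fold changes of TPM + 1, KO+OE over control, from limma fitted over 12319 genes, with Benjamini-Hochberg adjustment over all of them.

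No member passed an adjusted p of 0.05 in limma (0 of 66, lowest adjusted p 0.645), against 0.00812% of all genes tested, which is 1 gene. At an unadjusted p under 0.05 there were 3 members (4.55%, against 5.33% of all genes): 2 higher in KO+OE (3.03%, against 2.26% of all genes) and 1 lower (1.52%, against 3.06%). In 24 members (36.4%) the control and KO+OE values did not overlap, against 34.1% of all genes. Of these, 14 were higher in KO+OE (21.2%, against 14.5% of all genes) and 10 were lower (15.2%, against 19.6% of all genes). In either direction together the shares lay close to those of the whole table, while by direction the members had more genes higher than lower and the whole table the reverse. By sign alone 32 members were higher and 34 lower (51.5% lower, against 54.5% of all genes), with a median log2 fold change of -0.0003, against -0.01 over all genes.

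The intervals show how large a difference these libraries leave room for. The 95% confidence interval lay within a 1.5-fold change in either direction for 55 of 66 members (83.3%; 71.0% of all genes) and within a 2-fold change for 64 (97.0%; 92.6%). For members averaging 10 TPM or more the 1.5-fold bound held for 47 of 47 (95.4% of all genes at that level), and for members below it 8 of 19. The 2 members whose intervals reached past 2-fold were EIF2AK3 and EIF2A, both described further on. Between replicates the median absolute log2 difference of a member was 0.05 in the controls and 0.07 in KO+OE. The median absolute difference between the group means was 0.04. These are unlike measures, since a mean of 2 libraries varies less than a single library.

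**Figure D2:**
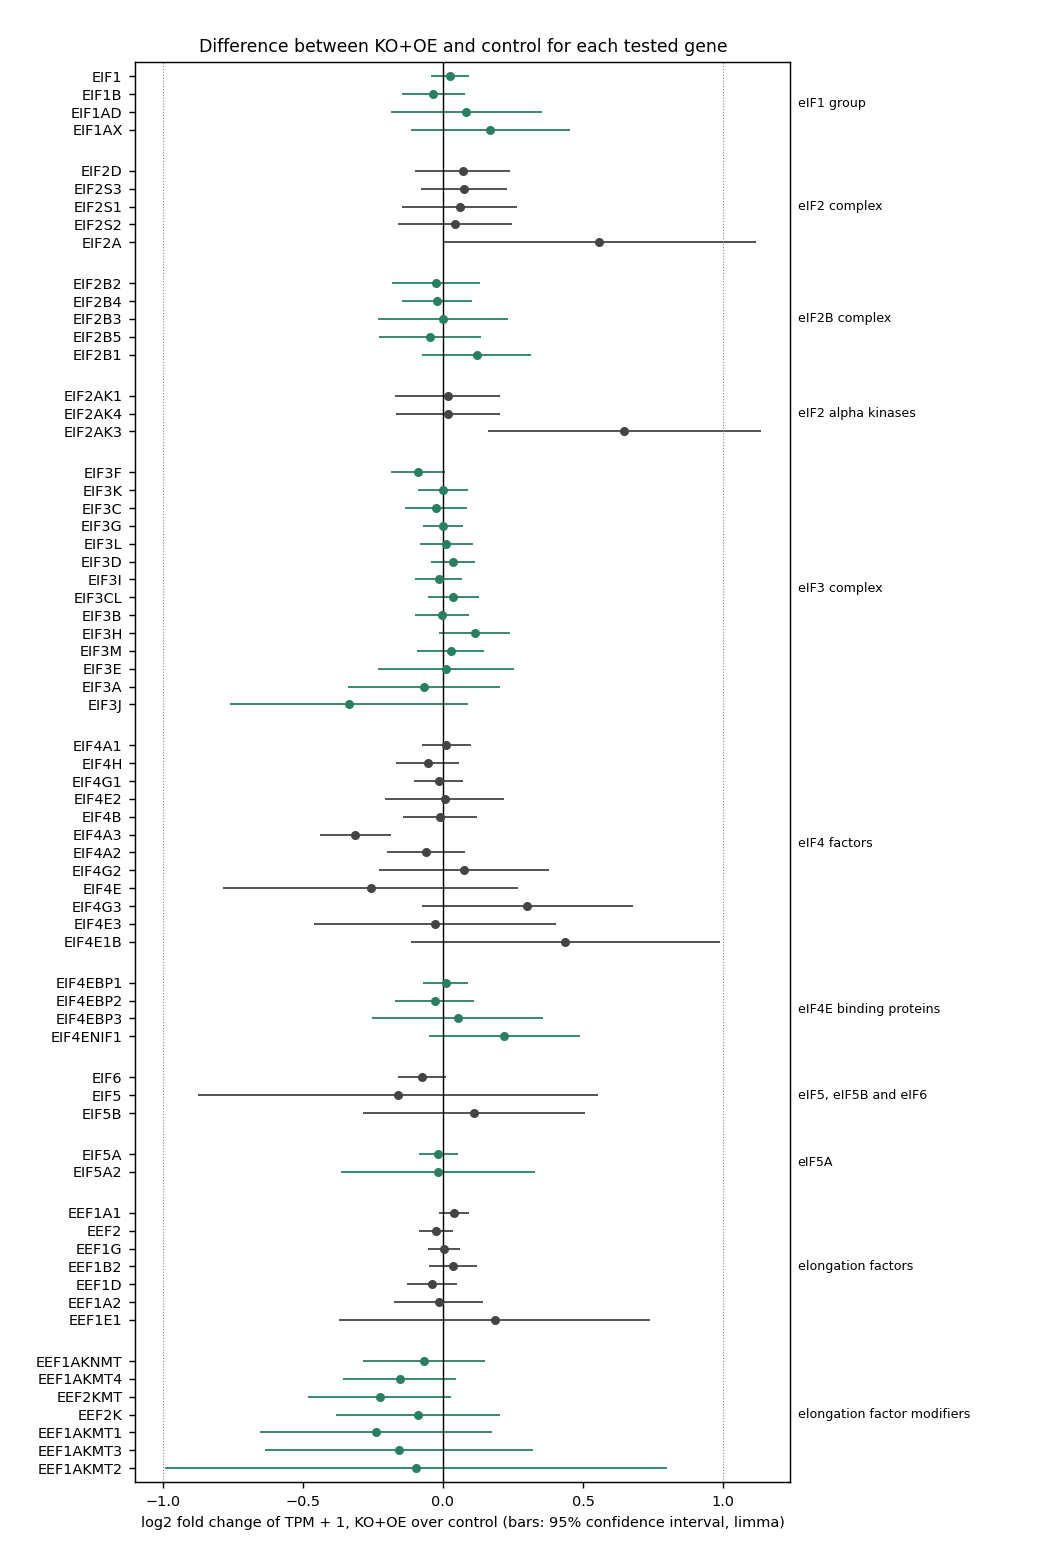
Log2 fold change of TPM + 1 (KO+OE over control) for each of the 66 tested genes, with 95% confidence intervals from limma; the solid line marks no difference and the dotted lines a 2-fold difference. Intervals are narrow for abundant genes, and those of EIF4A3, EIF2AK3 and EIF2A leave out 0.

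The eIF1 group is named for eIF1 and eIF1A, which govern scanning and start codon choice. EIF1AD was placed in it by name only. The group had 4 tested genes with levels from 5.58 TPM (EIF1AX) to 532 TPM (EIF1), and a median log2 fold change of 0.05 (0.02 without control 2 or KO+OE 2). EIF1 was at 528 and 526 TPM in the controls and 540 and 532 TPM in KO+OE (log2 fold change 0.02, -0.04 to 0.09). EIF1AX was at 4.96 and 5.43 TPM against 6.13 and 5.79 TPM (0.17, -0.12 to 0.45). In both genes the KO+OE values lay above the controls, by a margin that limma did not separate from replicate spread (adjusted p 0.960 and 0.938). EIF1B, a close paralog of EIF1, held 17.2% to 18.3% of the summed level of the pair.

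The 3 subunits of eIF2 were present at unequal levels. EIF2S1, the alpha subunit that stress kinases phosphorylate, was at 27.7 to 31.6 TPM, EIF2S2 (beta) at 13.8 to 15.03 TPM and EIF2S3 (gamma, which binds GTP and the initiator tRNA) at 34.8 to 38.6 TPM. EIF2D, a factor of noncanonical initiation and ribosome recycling, was the highest of the group with 36.2 and 39.3 TPM in the controls and 40.7 and 38.6 TPM in KO+OE (log2 fold change 0.07, -0.10 to 0.24). All 5 tested genes of the group had a positive sign, as did 48.5% of all members and 45.5% of all genes. The signs held after median-ratio rescaling and quantile normalization, and the median log2 fold change was 0.07 (0.04 without KO+OE 1). The 3 subunits alone lay at 0.04 to 0.07. In 4 of 5 genes the sign was positive without control 2 or without KO+OE 1, and only EIF2A had an unadjusted p under 0.05.

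EIF2A (ENSG00000144895; chr3:150546787-150586016 on GRCh38.p14), which can carry initiator tRNA without eIF2, was at 3.11 and 3.05 TPM in the controls and at 3.92 and 6.34 TPM in KO+OE. Both KO+OE values were above both controls, but the KO+OE libraries differed more from each other than KO+OE 1 did from the controls. The means were 3.08 ± 0.042 and 5.13 ± 1.71 TPM (SD, n = 2), and the log2 fold change was 0.56 (0.002 to 1.12; limma p 0.0495, adjusted p 0.931). It was 0.27 without KO+OE 2 and 0.85 without KO+OE 1, so 1 library set its size, and the unadjusted p was above 0.05 in 8 of the 11 alternatives that tested it.

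The eIF2B subunits, which recharge eIF2 with GTP, were 5 genes within a 3.41-fold range, from 15.2 TPM (EIF2B1) to 51.7 TPM (EIF2B2). EIF2B2 was at 54.1 and 50.3 TPM in the controls and 49.7 and 52.7 TPM in KO+OE, overlapping. EIF2B1 was at 14.4 and 14.6 TPM against 16.4 and 15.3 TPM (log2 fold change 0.12, -0.07 to 0.32; adjusted p 0.938), the only one of the 5 without overlap.

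Of the kinases that phosphorylate eIF2 alpha, EIF2AK1 (HRI, which senses haem) had the highest level with 28.9 and 28.4 TPM in the controls and 30.6 and 27.4 TPM in KO+OE. EIF2AK4 (GCN2, which senses uncharged tRNA) was at 15.9 to 16.8 TPM. Neither separated the groups. EIF2AK3 (PERK, the kinase of the endoplasmic reticulum stress response; ENSG00000172071; chr2:88556741-88628145) was at 0.66 and 1.01 TPM in the controls and at 1.89 and 1.83 TPM in KO+OE. The groups did not overlap, and the log2 fold change was 0.65 (0.16 to 1.13; limma p 0.0190, adjusted p 0.928). At so low a level the value follows the pseudocount: it was 1.09 with 0.1 TPM added and 0.23 with 5 TPM added. The unadjusted p was 0.0504 without control 1 and 0.0554 without KO+OE 1. Genes that act after eIF2 phosphorylation are given with the pathway partners.

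The eIF3 complex, the scaffold that holds the mRNA and the other factors on the small subunit, had all 14 genes tested, with levels from 4.03 TPM (EIF3J) to 1183 TPM (EIF3F), a 293-fold range among subunits of one complex. EIF3K was at 587 to 615 TPM, EIF3G at 496 to 505 TPM and EIF3L at 437 to 459 TPM, whereas EIF3A, the largest core subunit, was at 5.12 to 5.53 TPM. EIF3E was at 17.1 to 19.4 TPM and EIF3M at 56.4 to 58.7 TPM. This order was far wider than any difference between libraries. EIF3C and EIF3CL are near-identical genes whose reads could be divided between them by the counting; they held 72.5% to 74.6% and 25.4% to 27.5% of their sum.

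Between the groups the eIF3 genes split evenly, 7 higher and 7 lower, with a median log2 fold change of 0.0007. The split depended on the scaling and on single libraries: it was 9 higher and 5 lower after median-ratio rescaling or quantile normalization and without control 2 or KO+OE 1, and 5 higher and 9 lower without control 1 or KO+OE 2. EIF3F was at 1236 and 1202 TPM in the controls and 1112 and 1181 TPM in KO+OE, lower without overlap (log2 fold change -0.09, -0.19 to 0.009; adjusted p 0.931), and -0.04 without KO+OE 1. EIF3J, a loosely bound subunit, was at 4.95 and 4.26 TPM against 3.96 and 2.96 TPM (-0.34, -0.76 to 0.09; adjusted p 0.931), and -0.17 without KO+OE 2. EIF3H was at 89.1 and 95.5 TPM in the controls and 101 and 99.1 TPM in KO+OE. None of the 14 had an unadjusted p under 0.05 in this fit; EIF3H did after median-ratio rescaling and without control 2, and EIF3F after quantile normalization and without KO+OE 2.

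Transcript composition moved with these levels. Over the 66 tested members the Spearman correlation of a gene's TPM with the GC content of its canonical transcript was 0.457 to 0.466 in the 4 libraries, and with transcript length it was -0.364 to -0.348. Over the 14 eIF3 genes the GC value was 0.503 in every library, and over all 12147 genes with a transcript it was 0.264 to 0.277. The 22 members of lowest GC content (33.9% to 44.1%) had a median of 6.59 TPM and the 22 of highest GC content (51.6% to 64.6%) one of 192 TPM. EEF1A1 and EIF3F were high at low GC content (42.4% and 39.99%), over canonical transcripts of 3512 and 6920 bases. The rows of their pseudogene copies EEF1A1P5 (1389 bases) and EIF3FP3 (1086 bases) had a GC content of 48.3% and 56.1%. GC content may thus depend on the transcript taken, and the transcripts present in H9 cells were not measured. The points of such a correlation share their libraries, genes are not independent replicates, and the part of base composition in the order of levels was not tested.

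**Figure D3:**
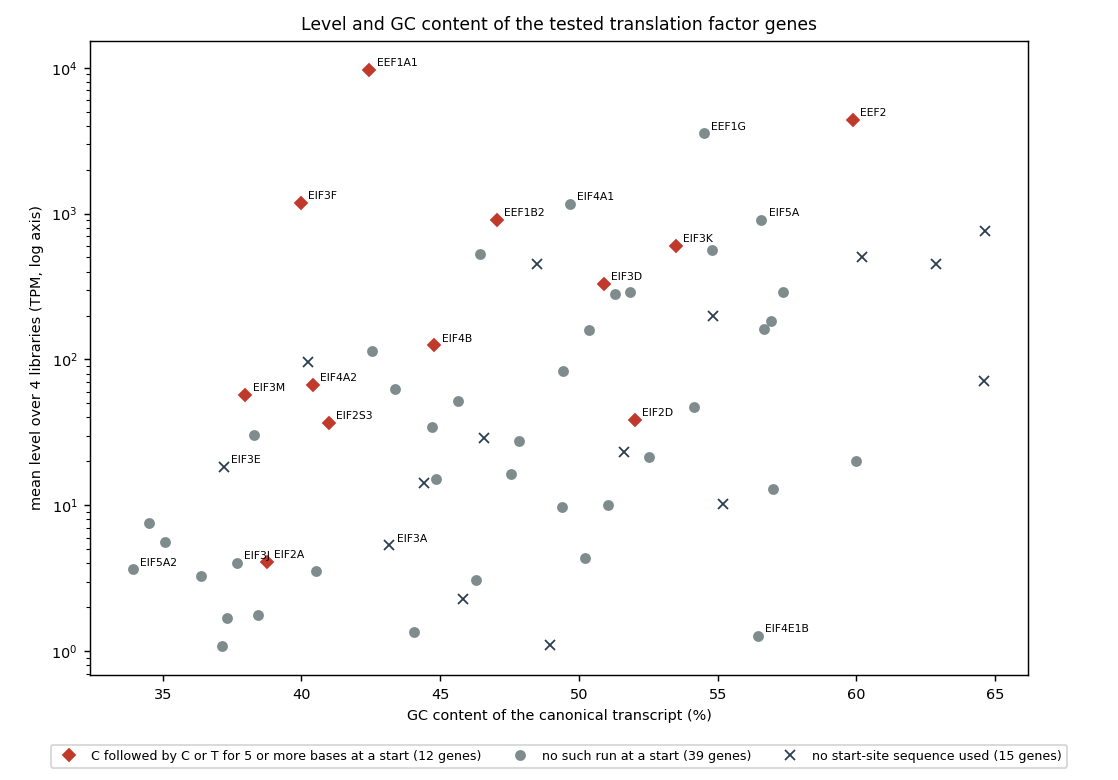
Mean level over the 4 libraries (TPM, log axis) against the GC content of the canonical transcript (%) for the 66 tested genes; red diamonds are the 12 genes with a pyrimidine run at an annotated start, grey circles the 39 without and crosses the 15 with no start sequence used. Many of the genes under 10 TPM lie at the left, and EEF1A1 and EIF3F stand far above other genes of like GC content.

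The eIF4 factors spanned 1.27 TPM (EIF4E1B) to 1162 TPM (EIF4A1), with 5 genes higher and 7 lower in KO+OE (6 and 6 after either rescaling) and a median log2 fold change of -0.01. EIF4A1, the helicase of the cap-binding complex, was at 1142 and 1172 TPM in the controls and 1138 and 1195 TPM in KO+OE. It held 94.3% to 94.98% of the sum of the pair with EIF4A2. EIF4G1, the scaffold, was at 161 to 165 TPM and EIF4G2 (DAP5, which lacks the eIF4E-binding part) at 57.1 to 71.8 TPM. The shares of the 3 eIF4G genes were 68.5% to 72.8% for EIF4G1, 25.8% to 30.1% for EIF4G2 and 1.10% to 1.72% for EIF4G3. EIF4H and EIF4B, which assist the helicase, were at 273 to 297 TPM and 121 to 131 TPM.

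Among cap-binding proteins the highest TPM was not that of EIF4E. EIF4E2 (4EHP, a cap-binding protein that does not bind eIF4G and represses translation) was at 173 and 146 TPM in the controls and at 159 and 160 TPM in KO+OE. EIF4E was at 8.14 and 8.45 TPM in the controls and at 5.36 and 8.50 TPM in KO+OE. EIF4E2 thus held 93.0% to 94.6% of the family sum and EIF4E 3.18% to 5.39%, in the same order in all 4 libraries. The canonical EIF4E transcript had a GC content of 34.5% and that of EIF4E2 50.4%. EIF4E1B, an eIF4E paralog, was at 0.93 and 0.91 TPM in the controls and 2 and 1.25 TPM in KO+OE, without overlap (log2 fold change 0.44, -0.12 to 0.99; adjusted p 0.931; 0.23 without KO+OE 1).

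EIF4A3 (ENSG00000141543; chr17:80134369-80147128), a helicase of the eIF4A family that works in the exon junction complex and not at the cap, was at 90.6 and 94.4 TPM in the controls and at 72.3 and 76.2 TPM in KO+OE. Both KO+OE values were below both controls, and the gap between the groups was larger than that between replicates. The means were 92.5 ± 2.68 and 74.3 ± 2.79 TPM (SD, n = 2), a log2 fold change of -0.31 (-0.44 to -0.19; limma p 0.00141, adjusted p 0.645). The unadjusted p stayed under 0.05 in each of the 12 alternatives tried, with a highest value of 0.0141, and the adjusted p ranged from 0.647 to 0.920 over them. The alternatives refit these same libraries for the member with the lowest p, so they add no independent support. The paralogs EIF4A1 and EIF4A2 of this gene overlapped between the groups.

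**Figure D4:**
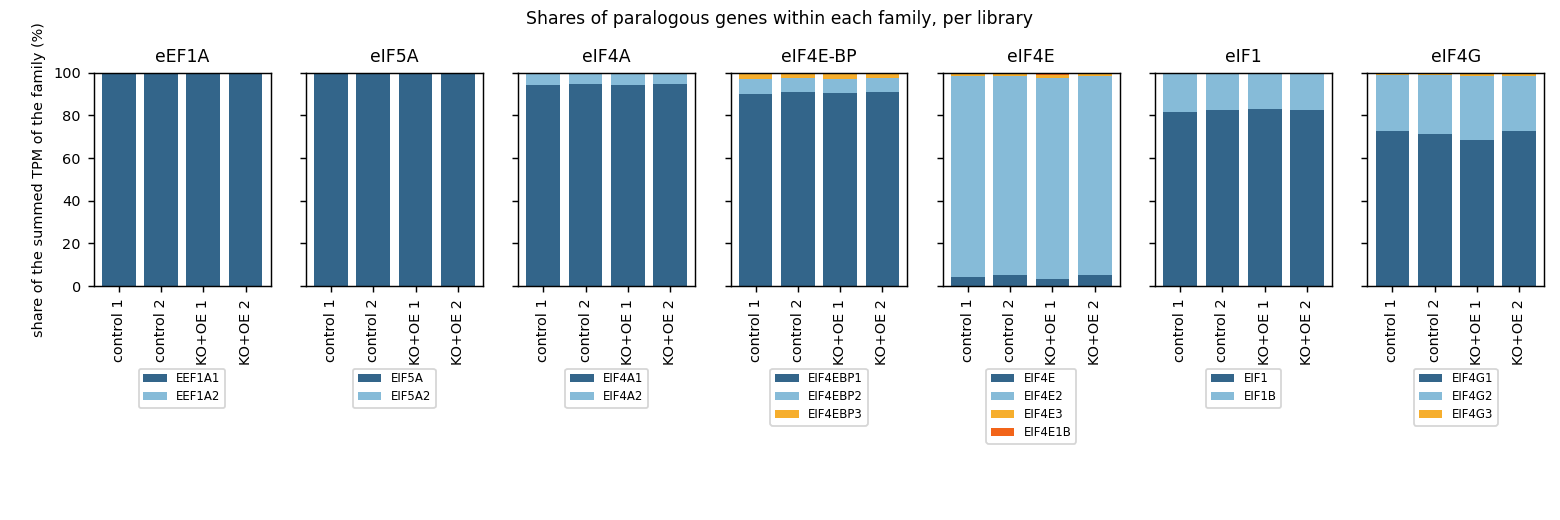
Share (%) of each paralog in the summed TPM of its family, stacked to 100% for each of the 4 libraries. EEF1A1, EIF5A, EIF4A1, EIF4EBP1 and EIF4E2 each hold over 90% of their family in every library, and EIF4E1B at the top of the eIF4E bars is 0.507% to 1.19%.

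The proteins that bind eIF4E and keep it from eIF4G were led by EIF4EBP1, at 446 and 456 TPM in the controls and 447 and 461 TPM in KO+OE. It held 90.1% to 91.0% of the 3 EIF4EBP genes, EIF4EBP2 holding 6.61% to 7.11% and EIF4EBP3 2.26% to 2.80%. EIF4ENIF1, which carries eIF4E to the nucleus and to processing bodies, was at 9.31 and 8.95 TPM in the controls and 9.99 and 11.7 TPM in KO+OE (log2 fold change 0.22, -0.05 to 0.49; adjusted p 0.931), the only gene of this group without overlap.

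Of the late initiation factors, EIF6, which keeps free large subunits from joining, was at 301 and 291 TPM in the controls and 280 and 281 TPM in KO+OE. The groups did not overlap, but the log2 fold change of -0.07 (-0.16 to 0.009) had an adjusted p of 0.931. EIF5, the GTPase activator of eIF2, was at 4.65 and 2.95 TPM against 4.2 and 2.44 TPM, and EIF5B at 1.63 to 1.89 TPM. EIF5A, which carries hypusine and relieves stalled ribosomes, was at 924 and 904 TPM in the controls and 911 and 897 TPM in KO+OE. It held 99.6% of the pair with EIF5A2, whose level was 3.37 to 3.97 TPM.

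The elongation factors were the most abundant group, 19212 and 19407 TPM in the controls and 19696 and 19321 TPM in KO+OE, with 4 genes higher and 3 lower (5 and 2 after quantile normalization) and a median log2 fold change of 0.004. EEF1A1 (ENSG00000156508; chr6:73515750-73521032) was at 9547 and 9615 TPM in the controls and 9954 and 9735 TPM in KO+OE. The groups did not overlap, with a log2 fold change of 0.04 (-0.01 to 0.09; adjusted p 0.932) that was -0.02 after quantile normalization and 0.05, with an unadjusted p of 0.0432, after median-ratio rescaling. EEF1A2, the form typical of muscle and neurons, was at 68.7 to 74.6 TPM, so EEF1A1 held 99.2% to 99.3% of the pair. EEF2 was at 4301 to 4459 TPM, and the eEF1B subunit genes EEF1G, EEF1B2 and EEF1D were at 3508 to 3574 TPM, 891 to 938 TPM and 750 to 796 TPM. Each of these 4 overlapped between the groups. EEF1E1, a component of the multi-tRNA synthetase complex, was the lowest with 3.77 and 2.31 TPM in the controls and 3.25 and 3.80 TPM in KO+OE.

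Of the enzymes that modify elongation factors, 7 of 7 had a lower mean log2 level in KO+OE, as did 34 of all 66 members and 54.5% of all genes, and 5 of the 7 were lower without overlap, against 19.6% of all genes. The 7 genes were read from the same libraries and are not independent of one another. Among the 19 members under 10 TPM, 7 were higher and 5 lower without overlap (63.2% in either direction). No modifier had an unadjusted p under 0.05 in limma, the lowest adjusted p was 0.931, and the median log2 fold change was -0.15. EEF1AKMT4, a lysine methyltransferase of eEF1A, was at 21.6 and 21.0 TPM in the controls and 20.1 and 18.1 TPM in KO+OE. EEF2KMT, which methylates eEF2, was at 11.0 and 11.3 TPM against 10.1 and 8.75 TPM, and EEF2K, the kinase that inactivates eEF2, at 4.49 and 4.56 TPM against 4.29 and 4.10 TPM. These 3 genes were lower in KO+OE in both libraries, by margins of about the size of the gap between the KO+OE replicates in the first and second.

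Except for EEF1AKNMT, the remaining methyltransferases were lower in level. EEF1AKMT1 was at 2.84 and 2.27 TPM in the controls and 2.06 and 1.94 TPM in KO+OE, with a log2 fold change of -0.24 (-0.65 to 0.17; adjusted p 0.942). EEF1AKMT3 was at 1.27 and 1.15 TPM against 1.11 and 0.86 TPM, also without overlap. EEF1AKNMT, the highest of the 7, was at 22.4 and 25.2 TPM against 21.7 and 23.5 TPM (-0.07, -0.29 to 0.15), and EEF1AKMT2, the lowest, at 1.81 and 0.56 TPM against 1.27 and 0.69 TPM; both overlapped. The 7 signs held after median-ratio rescaling and quantile normalization, and 6 of 7 were negative without control 1, without control 2 or without KO+OE 2. The median was -0.08 without KO+OE 2 and -0.06 with 5 TPM added.

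**Figure D5:**
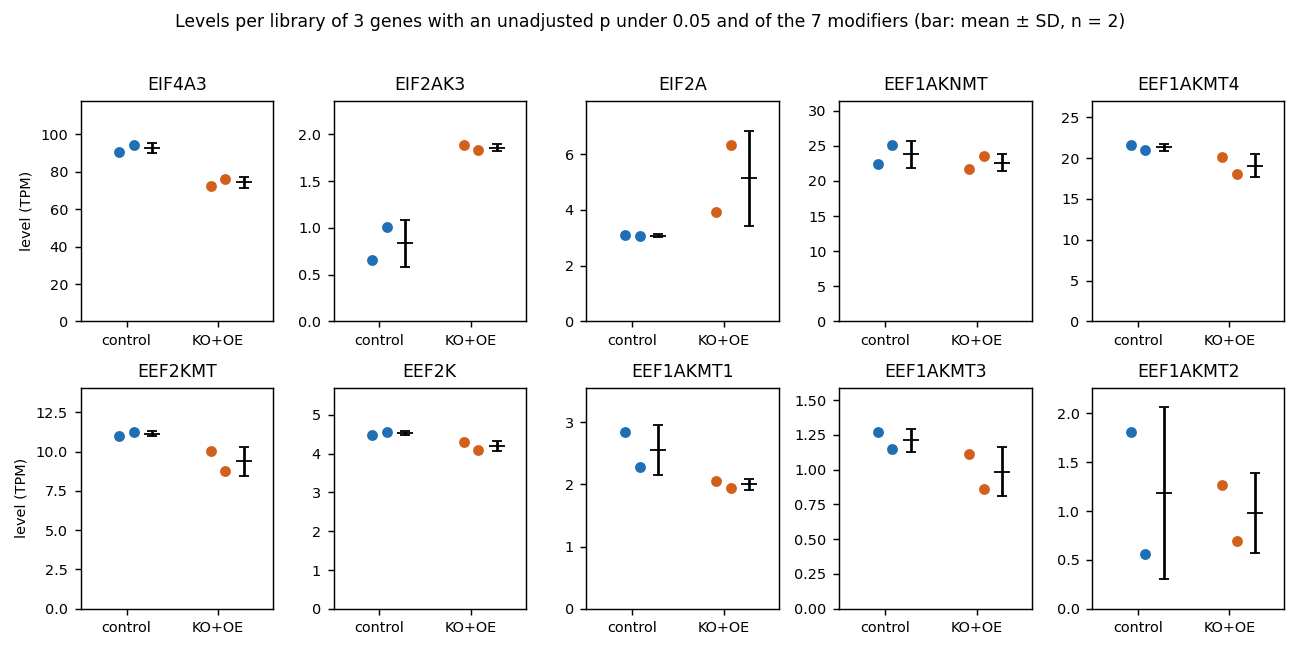
Level (TPM, axes from 0) per library of EIF4A3, EIF2AK3 and EIF2A, the 3 members with an unadjusted p under 0.05, and of the 7 enzymes that modify elongation factors; dots are libraries and bars the mean ± SD (n = 2). EIF4A3 shows tight pairs in both groups, EIF2A a wide pair in KO+OE, and the modifiers small steps down that in EEF1AKNMT and EEF1AKMT2 lie inside the spread.

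Other genes of the pathway were taken as a fixed list of 32, from poly(A)-binding proteins to release factors, and 30 were tested. None passed the adjusted threshold in limma, 3 had an unadjusted p under 0.05 (10%, against 5.33% of all genes), 10 did not overlap (33.3%, against 34.1%), and the median log2 fold change was 0.01. MTOR, the kinase that phosphorylates the eIF4E-binding proteins, was at 14.3 and 14.5 TPM in the controls and 16.8 and 16.8 TPM in KO+OE (log2 fold change 0.21, 0.03 to 0.39; adjusted p 0.928). DOHH, which completes hypusine on eIF5A, was at 20.9 and 20.4 TPM against 18.4 and 17.3 TPM (-0.20, -0.38 to -0.02; adjusted p 0.928). MKNK2, a kinase of eIF4E, was at 69.3 and 71.5 TPM against 63.6 and 64.8 TPM (-0.13, -0.25 to -0.02; adjusted p 0.928). These 3 unadjusted p-values were all above 0.05 whenever 1 library was left out (0.0513 to 0.135), and also for MTOR with the replicate block (0.0509), for DOHH without the trend (0.0538) and for MKNK2 without the trend (0.121) or after quantile normalization (0.0713). DHPS, which acts on eIF5A before DOHH, overlapped between the groups at 64.5 to 70.1 TPM.

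Genes that act after eIF2 phosphorylation were on the same list. ATF4, whose translation rises when eIF2 is phosphorylated, was at 345 and 365 TPM in the controls and 356 and 371 TPM in KO+OE, with a log2 fold change of 0.04 (-0.07 to 0.14). DDIT3, which is induced by ATF4, was at 3.71 and 5.27 TPM against 5.93 and 4.85 TPM (0.23, -0.25 to 0.71), and the value was 0.02 without control 1 and 0.435 without control 2. Both overlapped between the groups. ETF1, the release factor that reads stop codons, was at 8.26 and 8.12 TPM in the controls and 9.84 and 9.52 TPM in KO+OE (0.22, -0.006 to 0.44, adjusted p 0.931). Its unadjusted limma p of 0.0546 fell under 0.05 with 0.1 TPM added (0.0485), no filter (0.0372) or no trend (0.0322). It also did after median-ratio rescaling (0.0436) or quantile normalization (0.0372). With 5 TPM added, the 5 TPM filter or the replicate block it stayed above 0.05 (0.0625, 0.0686 and 0.0869). It was also above 0.05 in each fit with 1 library left out, where the log2 fold change was 0.195 to 0.238. PABPC1, the main poly(A)-binding protein, was at 391 to 410 TPM. The factors of mitochondrial translation, which are not members, had 8 of 9 genes tested, none with an unadjusted p under 0.05, and a median log2 fold change of -0.004; TUFM, the mitochondrial counterpart of eEF1A, was at 325 to 335 TPM.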

How the data were processed

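The deposited table gives 1 value per gene and library with no stated unit. Its columns sum to nearly equal totals (986853 to 987078) and are not whole numbers, so the deposited values were read as TPM made by the authors. The submitters' processing notes name HISAT2, featureCounts, Subread and DESeq2 with hg38, without versions. Whether counting used strand is not given in the sources used here, and count models were not run because no counts were used. Reads of paralogs, pseudogenes and overlapping genes may be divided between rows by that counting.

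log2(TPM + 1) was fitted with limma 3.58.1 (R 4.3.3; trended prior, two-sided) to control (n = 2) and KO+OE (n = 2) for the 12319 genes averaging 1 TPM or more, with Benjamini-Hochberg adjustment. The code was tested on simulated data. Transcript length and GC content came from GENCODE canonical transcripts (lifted to GRCh37), positions and start sequences from RefSeq GRCh38.p14. Members were named by role group: the highest and lowest level, any unadjusted p under 0.05, paralogs, the largest fold change and genes under the filter; some others are given by range, chosen after their values were seen. Members and lists were chosen with earlier results of these data known. The alternatives tried were pseudocounts of 0.1 and 5 TPM, no filter, a filter of 5 TPM, median-ratio rescaling, quantile normalization, no trend, a replicate block and leaving out each library.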

Additional observations from a re-analysis of the deposited data

How the results depend on the processing

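Under every alternative 0 members passed the adjusted threshold in limma. Members with an unadjusted p under 0.05 numbered 3, but 1 with the 5 TPM filter, which drops EIF2AK3 and EIF2A from the test, 2 with 5 TPM added or with no filter (EIF2A lost), 4 after median-ratio rescaling (EEF1A1 and EIF3H in place of EIF2A) or quantile normalization (EEF1G and EIF3F in its place), and 2 to 5 when 1 library was left out (5 without KO+OE 2); without the trend they were 3 with EIF4G3 in place of EIF2A. Non-overlapping members numbered 24, but 15 with the 5 TPM filter (52 members tested) and 41 to 49 with 1 library left out, since 3 values overlap less often than 4. Leaving out 1 library assumes that the lone sample of its group varies like the other group. Across these fits the log2 fold change of NUDT21 ranged from -0.0121 to 0.0656, and the medians from -0.016 to 0.092 for the eIF2 alpha kinases, -0.016 to 0.02 for eIF3, 0.015 to 0.074 for eIF1, 0.037 to 0.11 for eIF2, -0.038 to 0.026 for eIF2B, -0.014 to 0.092 for the eIF4E-binding proteins, -0.1 to 0.12 for eIF5, eIF5B and eIF6, -0.071 to 0.038 for eIF5A, -0.0017 to 0.034 for the elongation factors, -0.25 to -0.082 for the modifiers and 0.01 to 0.099 for the mitochondrial factors. The eIF3 median was 0.013 after median-ratio rescaling and 0.012 after quantile normalization, and that of the modifiers -0.06 with 5 TPM added. No scaling moved the median of all genes by 0.1 or more.

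Of 31 genes whose fold change was followed, 11 changed sign in some fit with 1 library left out: ATF4 (-0.00531 to 0.0772), DHPS (-0.0875 to 0.0112), EEF1AKNMT (-0.149 to 0.0103), EEF1E1 (-0.0787 to 0.448), EIF2AK1 (-0.0589 to 0.0918), EIF2B2 (-0.0772 to 0.026), EIF4A1 (-0.0231 to 0.0469), EIF4EBP1 (-0.0115 to 0.0314), EIF5 (-0.458 to 0.138), EIF5A (-0.0324 to 0.000219) and EIF5A2 (-0.11 to 0.0755). EEF1A1 changed sign under quantile normalization (-0.016). Without a change of sign, EIF3J ranged from -0.498 to -0.174, EIF4E1B from 0.229 to 0.644, EIF3F from -0.132 to -0.0446, DDIT3 from 0.0222 to 0.435, EEF1AKMT1 from -0.356 to -0.125, EIF4ENIF1 from 0.118 to 0.321, EIF2D from 0.0111 to 0.128, EIF2B1 from 0.0736 to 0.169, EIF1 from 0.014 to 0.035, and EIF4A3 from -0.351 to -0.276. Same-numbered libraries did not deviate together (correlation -0.049), but a single correlation from so few libraries cannot exclude that they were prepared together. With the replicate block 0 members passed the adjusted threshold and 3 the unadjusted one (673 genes in all, against 656). Without counts the depth behind the 19 members under 10 TPM is unknown, and 8 of their 19 confidence intervals lay within 1.5-fold.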

Other observations

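Rows that share sequence with members, or lie over them, gave further values. The pseudogene rows whose names match the same pattern summed to 554 and 618 TPM in the controls and 668 and 767 TPM in KO+OE, and 87 of the 137 were at 0 in every library. Nearly all of the sum was EEF1A1P5, at 529 and 590 TPM in the controls and 638 and 740 TPM in KO+OE. Its KO+OE values lay above the controls, with a log2 fold change of 0.30 (95% confidence interval 0.07 to 0.52; limma p 0.0189, adjusted p 0.928), and it came to 5.54% to 7.60% of EEF1A1. How the counting treated reads shared by EEF1A1 and this near-identical copy is not given in the sources used here. EIF3FP3, a copy of EIF3F, was at 14.2 and 18.4 TPM against 21.2 and 19.6 TPM (log2 fold change 0.32, -0.02 to 0.66, limma adjusted p 0.931). EEF1A1P6 went the other way without overlap, at 4.44 and 4.86 TPM in the controls and 4.05 and 3.44 TPM in KO+OE. Of the 4 pseudogene rows that were tested, 2 were higher and 2 lower in KO+OE.

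The read-through row EEF1E1-BLOC1S5 was at 9.78 and 14.03 TPM in the controls and at 9.43 and 1.68 TPM in KO+OE, above EEF1E1 itself in 3 of 4 libraries. Its KO+OE values did not overlap the controls, but KO+OE 2 alone was far below the rest, and the log2 fold change of -1.27 had an interval of -2.92 to 0.39.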
